A study of Mus musculus with 12 samples.

Results

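A T cell builds its antigen receptor from a beta chain (TRB) and an alpha chain (TRA), each cut together from V, D and J or V and J gene segments by V(D)J recombination. The junction, called CDR3, carries trimmed and added bases that make it nearly unique to a cell and its descendants, so cells sharing a CDR3 nucleotide sequence are counted as a clone. A developing thymocyte that has made a productive beta chain normally stops rearranging the other TRB allele, which is known as allelic exclusion, whereas the TRA alleles go on rearranging and a second in-frame alpha chain is a well known feature of mature T cells. A cell barcode with 2 different productive TRB can therefore be 1 cell in which both alleles are in frame, or a droplet that held more than 1 cell. Which of these applied to a given barcode was not tested here, and the values below describe these barcodes.

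The cells described here were selected on the deposited contig lists, as every cell barcode listing 2 or more productive TRB contigs with different CDR3 nucleotide sequences. There were 431 such cells, called 2-TRB cells below, of 6826 cells with a productive TRB (6.31%, 95% exact interval 5.75 to 6.92) and of 7056 cells with any productive chain. The other 6395 cells, called 1-TRB cells, listed exactly 1. No cell listed more than 2 productive TRB or more than 2 productive TRA. Because TRB number chose the cells, their number and their TRB UMIs are descriptions. Tests were kept to the TRA, to nonproductive contigs, to V and J segment use of both chains and to comparisons over libraries.

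The 6 libraries came from CD45+ sorted immune cells of C57BL/6 mice, with 2 libraries of NonTg brain parenchyma, 2 of 5xFADTg brain parenchyma, 1 of NonTg meninges and 1 of 5xFADTg meninges. The 5xFAD transgenes encode mutant human forms of amyloid precursor protein and of presenilin, are driven in neurons by the Thy1 promoter and give a model of amyloid deposition; NonTg mice lack them. The labels give no age, sex or animal, and p-values measure only the spread between these libraries, some of which may be technical. CD45 marks all leukocytes, and cells entered these lists only through a receptor contig. Contigs of gamma, delta or immunoglobulin chains numbered 0. The samples are labelled as TCR libraries, so this 0 is no measure of whether other cell types were present. Each library held 15827899 to 26710709 reads and 49997 to 128700 unique molecular identifiers (UMIs, tags that count each captured cDNA once). Cell labels found in more than 1 library numbered 21 of the series, 2 of them on 2-TRB cells, and in 0 of those did the other library hold the same TRB.

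The CDR3 sequences of a few 2-TRB cells are printed first because the results below return to them. Most of the 431 cells, 328 (76.1%), were of neither kind shown. The first sequences are of the largest recurring pair, found together in 33 cells of 5xFADTg parenchyma library 1, followed by the TRA chains of the same cells. Lower case marks bases matched by the germline V segment at the 5′ end or the germline J segment at the 3′ end, and capitals mark the bases between them, which in TRB come from the D segment and added bases and in TRA, which has no D segment, from added bases.
TRBV19-TRBJ1-1: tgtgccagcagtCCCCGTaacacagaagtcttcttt
TRBV20-TRBJ1-1: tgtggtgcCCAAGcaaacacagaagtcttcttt
TRAV15-2-DV6-2/TRAJ2: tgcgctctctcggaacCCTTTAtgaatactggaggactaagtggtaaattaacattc
TRAV9D-3/TRAJ9: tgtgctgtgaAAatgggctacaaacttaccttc
These TRB share the J segment and differ in V and in the junction, at an edit distance of 10 nucleotides, so they are separate rearrangements of the locus. In GENCODE M21 (GRCm38, the assembly named mm10) TRBV19 lies at chr6:41178375-41179048, TRBV20 at chr6:41188273-41188977 and TRBJ1-1 at chr6:41533864-41533911, all on the plus strand. The TRA segments lie on chromosome 14, with TRAV15-2-DV6-2 at chr14:53649404-53649994 and TRAV9D-3 at chr14:52920443-52921112.

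The next sequences are first of a pair carried by 5 cells of 5xFADTg parenchyma library 2, 4 of them with a common TRA. They are then of a pair carried by 4 cells of NonTg parenchyma library 2 and again by 4 cells of the NonTg meninges library. They are shown because neither pair's TRB made a large clone by itself. The label TRBV12-2+TRBV13-2 is a joint call in the files, and the sequence matched germline TRBV13-2 best.
TRBV13-1-TRBJ2-4: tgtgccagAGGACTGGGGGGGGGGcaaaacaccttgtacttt
TRBV13-3-TRBJ2-5: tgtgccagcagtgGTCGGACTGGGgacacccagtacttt
TRAV6-1/TRAJ21: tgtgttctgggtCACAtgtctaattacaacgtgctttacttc
TRBV12-2+TRBV13-2-TRBJ2-7: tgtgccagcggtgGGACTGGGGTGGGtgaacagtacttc
TRBV3-TRBJ2-4: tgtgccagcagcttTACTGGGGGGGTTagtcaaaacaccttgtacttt
TRAV12-2/TRAJ27: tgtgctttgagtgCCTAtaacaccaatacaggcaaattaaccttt
In contrast, 1 cell of NonTg parenchyma library 1 held the chains of 2 receptors that each had their own clone in the same library. It was picked from 24 such cells described below because the smaller of its 2 clones was the largest. Its TRBV1 chain (20 UMIs) was found in 29 other 1-TRB cells together with the TRAV13D-1 chain, and its TRBV14 chain (11 UMIs) in 15 other 1-TRB cells together with the TRAV9D-1 chain. These 4 chains are shown in that order.
TRBV1-TRBJ2-1: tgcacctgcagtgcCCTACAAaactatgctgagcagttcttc
TRAV13D-1/TRAJ22: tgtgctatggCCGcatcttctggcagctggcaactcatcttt
TRBV14-TRBJ1-1: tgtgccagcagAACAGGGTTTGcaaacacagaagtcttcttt
TRAV9D-1/TRAJ31: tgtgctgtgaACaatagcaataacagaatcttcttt

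In each library the 2-TRB cells were a small share of the cells with a productive TRB. In NonTg parenchyma the share was 7.03% (97 of 1380 cells, 95% exact interval 5.74 to 8.51) in library 1 and 5.36% (52 of 970, 4.03 to 6.97) in library 2. In 5xFADTg parenchyma it was 7.36% (114 of 1549, 6.11 to 8.77) in library 1 and 6.17% (127 of 2058, 5.17 to 7.30) in library 2. In the meninges it was 5.41% (22 of 407, 3.42 to 8.07) for NonTg and 4.11% (19 of 462, 2.49 to 6.35) for 5xFADTg. The genotypes overlapped in parenchyma, and the 5xFADTg meninges library was the lowest of the 6. Intervals cover counting error only.

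No difference between genotypes larger than the spread of the libraries was detected. The share was 6.77% ± 0.840 (SD, n = 2) in 5xFADTg and 6.19% ± 1.18 (SD, n = 2) in NonTg parenchyma, so 5xFADTg lay 0.570 percentage points above NonTg (exact permutation p = 0.667, two-sided, adjusted 0.667 over 2 comparisons; the smallest p that 2 against 2 libraries can give is 0.333). The sign of this difference turned with the recurring pairs: over the 2-TRB cells whose pair was seen once in its library it was -0.492 points. Without NonTg parenchyma library 2 it was -0.264 points and without 5xFADTg parenchyma library 1 -0.0239 points. The meninges had 4.76% ± 0.914 (SD, n = 2) and the parenchyma 6.48% ± 0.899 (SD, n = 4), a difference of -1.72 points (exact permutation p = 0.267, adjusted 0.533; smallest possible 0.133). The tissue difference stayed below 0 under every alternative run, from -2.50 to -1.07 points, and passed the threshold of 0.05 under none.

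**Figure D1:**
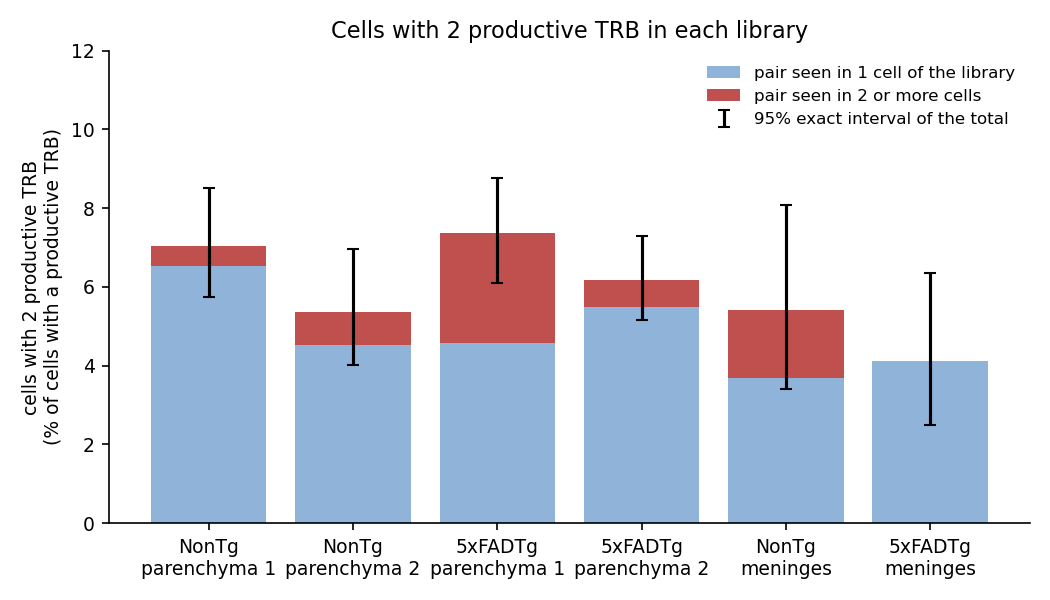
Percent of the cells with a productive TRB that listed 2 productive TRB, for each of the 6 libraries; blue is the part whose TRB pair was seen in 1 cell of the library, red the part whose pair was seen in 2 or more, and black bars are 95% exact intervals of the total. The red part is largest in 5xFADTg parenchyma library 1 (43 of 114 cells), and the 5xFADTg meninges library has none (0 of 19).

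Both TRB of a 2-TRB cell were usually well covered, and the second was seldom a trace. The chain with more UMIs had a median of 10 UMIs, the other a median of 5, and their sum a median of 16, against a median of 8 for the TRB of 1-TRB cells. The ratio of the second to the first was 0.55 at the median (quartiles 0.375 and 0.75). By library, the median ratio was 0.5 and 0.547 in NonTg parenchyma, 0.5 and 0.6 in 5xFADTg parenchyma, 0.5 in NonTg meninges and 0.65 in 5xFADTg meninges. The libraries thus lay close together on this measure. The second TRB had at least 0.5 of the UMIs of the first in 257 cells (59.6%) and under 0.25 in 28 (6.50%).

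At the edge of the rule, the second TRB rested on 1 UMI in 7 of the 431 cells (1.62%) and on 1 or 2 UMIs in 48. Just outside it, 115 of the 6395 1-TRB cells (1.80%) had their only TRB on 1 UMI, and 2593 listed another TRB contig that was not productive, of which 822 cells had one with a V and a J segment. The closest TRB of any 2-TRB cell differed by 3 nucleotides in CDR3, and 0 pairs differed by 2 or fewer, a distance at which a sequencing error could split 1 chain into several.

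The second alpha chain looked unlike the second beta chain in UMIs. In the 156 2-TRB cells with 2 productive TRA, the weaker TRA had a median of 0.0779 of the UMIs of the stronger, and in the 464 1-TRB cells with 2 TRA a median of 0.0887. These ratios are over cells within the lists and were not tested. Cells with 2 productive TRA numbered 648 in the series, so 156 cells had 2 of both chains.

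**Figure D2:**
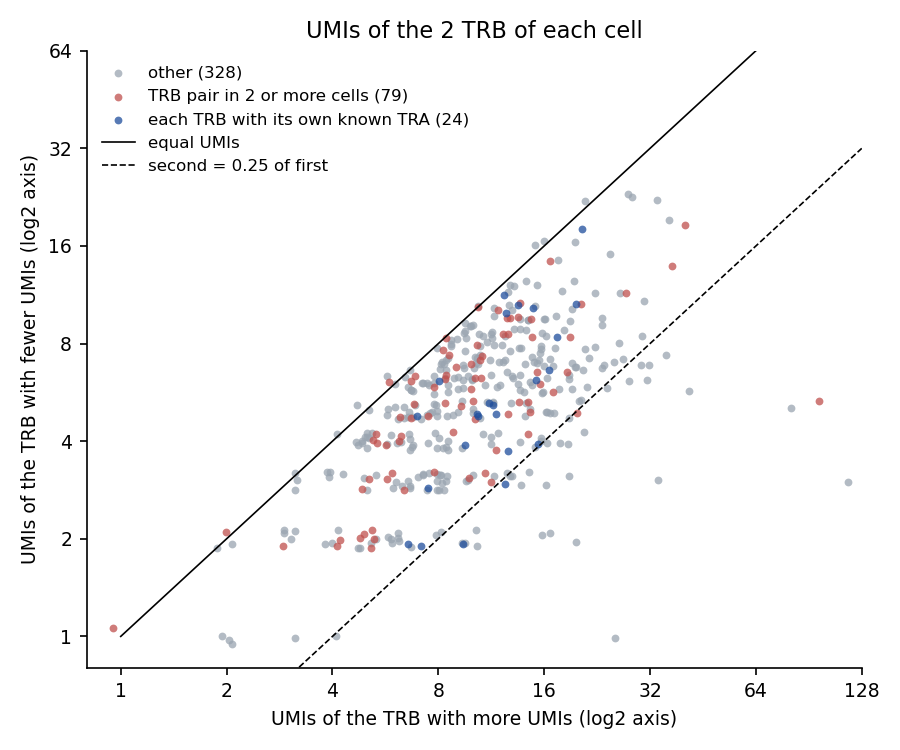
UMIs of the TRB with fewer UMIs against the TRB with more, on log2 axes, for each of the 431 cells; points are shifted slightly so that equal values can be seen. Red cells share their TRB pair with another cell. Blue cells, outside those pairs, hold 2 receptors that are each known from other cells, and grey cells are the rest. The kinds overlap, mostly between the line of equal UMIs and the dashed line at 0.25, and the blue cells cover a narrower range than the others.

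In each of the 6 libraries a larger share of 2-TRB cells than of 1-TRB cells listed a second alpha chain. The percent with 2 productive TRA was 39.2 against 7.40 in NonTg parenchyma library 1 and 30.8 against 8.17 in library 2. In 5xFADTg parenchyma it was 39.5 against 6.83 in library 1 and 39.4 against 6.58 in library 2. In the meninges it was 13.6 against 10.4 for NonTg, from 3 of 22 2-TRB cells, and 21.1 against 6.55 for 5xFADTg. Every library was higher in the 2-TRB cells, the NonTg meninges least.

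The mean over libraries was 30.6% ± 11.0 (SD, n = 6) in 2-TRB and 7.65% ± 1.48 (SD, n = 6) in 1-TRB cells, a difference of 22.9 ± 12.1 points. The two-sided exact sign-flip permutation test over libraries gave p = 0.0312, the smallest that 6 libraries can give, and 0.125 after adjustment over the 4 contrasts of this kind, so the difference did not pass the threshold. It ranged from 20.95 to 26.9 points over the alternatives, with adjusted permutation p from 0.0625 to 0.25. TRA UMIs per cell, given below, were higher in the 2-TRB cells of 4 of 6 libraries, and their part in the difference was not tested.

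**Figure D3:**
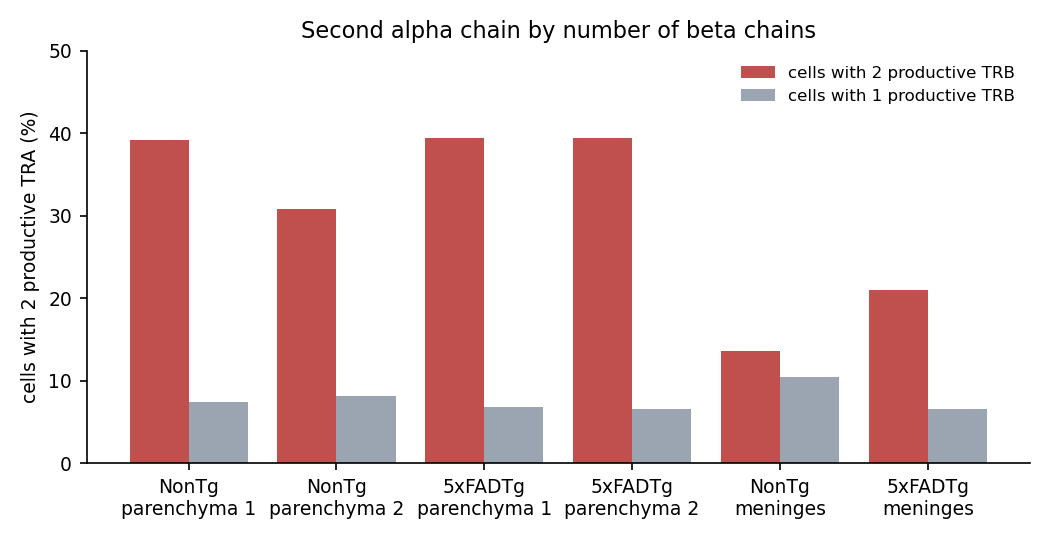
Percent of cells with 2 productive TRA among cells with 2 productive TRB (red) and with 1 productive TRB (grey) in each library. The red bar is higher in 6 of 6 libraries, from 13.6% in NonTg meninges to 39.5% in 5xFADTg parenchyma library 1.

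The share of cells without a TRA was lower among 2-TRB than among 1-TRB cells in 5 of 6 libraries. Pooled over libraries, 34 of 431 2-TRB cells had no productive TRA (7.89%), 241 had 1 (55.9%) and 156 had 2 (36.2%), and in 1-TRB cells the percentages were 18.6, 74.2 and 7.26. By library, cells without TRA were 12.4% of 2-TRB against 17.1% of 1-TRB cells and 13.5% against 16.6% in NonTg parenchyma, and 2.63% against 16.0% and 6.30% against 24.8% in 5xFADTg parenchyma. In the meninges they were 13.6% against 9.35% for NonTg and 5.26% against 16.5% for 5xFADTg. The mean difference was -7.76 ± 8.16 points (SD, n = 6; exact sign-flip permutation p = 0.0938, adjusted 0.188), and the NonTg meninges went the other way.

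TRA UMIs per cell differed less. The median over cells with a TRA was 83 in 2-TRB against 49 in 1-TRB cells and 54 against 61 in NonTg parenchyma, 38 against 50 and 48 against 35 in 5xFADTg parenchyma, and in the meninges 114 against 75 for NonTg and 99.5 against 51.5 for 5xFADTg. They were higher in the 2-TRB cells of 4 of 6 libraries, with a mean log2 ratio of 0.37 ± 0.54 (SD, n = 6; exact sign-flip permutation p = 0.156, adjusted 0.208).

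A TRB allele can also carry a nonproductive rearrangement, as when the first attempt is out of frame. Any nonproductive TRB contig was listed in 41.4% ± 5.81 of 2-TRB and 40.2% ± 3.11 of 1-TRB cells (SD, n = 6 libraries), a difference of 1.25 ± 4.77 points (exact sign-flip permutation p = 0.5, adjusted 0.5). Without the cells of recurring pairs the difference was 6.76 points, with 2-TRB cells higher (exact sign-flip permutation p = 0.0312, adjusted 0.0833; adjusted p over all alternatives of this contrast 0.0625 to 0.938), and with each pair counted once it was 4.85 points.

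Nonproductive contigs were counted by kind of 2-TRB cell, without a test. Any nonproductive TRB contig was listed in 15 of the 79 cells of recurring pairs (18.99%), in 11 of the 24 cells outside them holding 2 receptors that are each known from other cells (45.8%) and in 162 of the 328 remaining cells (49.4%). A nonproductive TRB contig with a V and a J segment was listed in 0 of the 79, 5 of the 24 (20.8%) and 53 of the 328 (16.2%). Whether such a contig was a rearrangement other than the productive ones of its cell was not tested. The 79 cells make up 16 pairs, counted by library, 1 of them with 33 cells, and are not 79 independent observations. In 1-TRB cells 822 had such a contig (12.9%).

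Recurring pairs were counted as 2 TRB found together in at least 2 cells of a library. There were 16 such pairs in 5 libraries, covering 79 cells (18.3% of the 431). Another 352 pairs were seen in only 1 cell of their library. Pairs were counted by library, and 1 pair, in 4 cells of NonTg parenchyma library 2 and 4 of NonTg meninges, counts in both. As distinct sequences, 15 pairs recurred within a library, of 360 pairs in the series. NonTg parenchyma had 2 pairs (7 cells) in library 1 and 3 (8 cells) in library 2. 5xFADTg parenchyma had 5 (43 cells) in library 1 and 4 (14 cells) in library 2. NonTg meninges had 2 (7 cells) and 5xFADTg meninges 0. At least 2 cells of a pair shared a TRA in 14 of the 16 pairs, which in some pairs was not all of the cells. Neither TRB occurred in any 1-TRB cell of the library in 9 pairs, and in 10 pairs at least 75% of the cells carrying each TRB carried the other as well. The cell barcodes of a pair differed at 6 or more positions, so no repeated pair consisted of barcodes that differ by a sequencing error of 1 base.

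The TRBV19-TRBJ1-1 and TRBV20-TRBJ1-1 pair made up 28.9% of the 2-TRB cells of 5xFADTg parenchyma library 1. Of 39 cells with either chain, 33 had both, 1 had TRBV19 alone, 4 had TRBV20 alone and 1 had TRBV19 with another TRB. Median UMIs were 9 for TRBV19 (range 2 to 21) and 7 for TRBV20 (2 to 20), and TRBV19 had more UMIs in 19 cells, TRBV20 in 13, with 1 equal. Neither chain was the weaker one throughout. The TRAV15-2-DV6-2 chain was found in 27 of the 33 cells (median 14 UMIs) and the TRAV9D-3 chain in 20 (median 5 UMIs): 15 cells had both, 12 only the first, 5 only the second and 1 cell no TRA.

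Counted over all cells, these chains ranked 9 and 7 among the 861 distinct TRB of the library, and counted over 1-TRB cells only they ranked 111 and 30. A clone list that leaves out 2-TRB cells therefore places them far lower. The deposited clonotype identifiers split the 33 cells into 4 clonotypes. None of the 4 chains was found in any of the other 5 libraries.

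The smaller pairs mostly looked alike in this respect. The 5xFADTg parenchyma library 2 pair TRBV10-TRBJ2-1 with TRBV12-2+TRBV13-2-TRBJ1-4 was in 5 cells, all 5 with the same TRAV9D-3/TRAJ15 chain, and in 0 cells was either TRB alone. The TRBV13-1 and TRBV13-3 pair shown above was in 5 cells, 4 of them with the TRAV6-1 chain, also with 0 cells having either alone. In NonTg parenchyma library 1, TRBV13-2-TRBJ2-7 with TRBV3-TRBJ2-7 was in 4 cells (2 with a TRA, the same one) and TRBV12-2-TRBJ1-2 with TRBV19-TRBJ1-6 in 3, all with the same TRA. In the last pair TRBV12-2 had 10 to 18 UMIs and TRBV19 had 6 to 12.

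A pair in 2 cells of 5xFADTg parenchyma library 2, TRBV13-1-TRBJ2-7 with TRBV15-TRBJ2-4, carried the TRAV1/TRAJ33 chain of MAIT cells, which recognise vitamin B metabolites. That TRA was in 6 cells of the library, and because this chain is nearly the same in many MAIT cells it does not mark a clone as other TRA do. MAIT-like chains were found in 4 of 431 2-TRB cells and 26 of 6395 1-TRB cells, and the TRAV11/TRAJ18 chain of iNKT cells, which recognise lipids, in 18 and 204.

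The pair of TRBV1-TRBJ1-5 with TRBV1-TRBJ2-2 in 5xFADTg parenchyma library 2 stood apart. It was in 2 cells, while 51 and 12 1-TRB cells carried the chains alone. The 2 cells shared no TRA: 1 had the TRAV10/TRAJ31 chain, which 47 cells of the library carried, and the other the TRAV7D-4/TRAJ17 chain, which 15 carried. In 5xFADTg parenchyma library 1, TRBV12-2+TRBV13-2-TRBJ2-4 with TRBV20-TRBJ2-7 was in 2 cells, with 33 cells having the first chain alone and 0 the second. Unlike the pair before, both cells shared a TRA, the TRAV13D-2/TRAJ26 chain, which 2 cells of the library carried. In 1 of them the TRAV16/TRAJ45 chain, carried by 27 cells, was listed as well.

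**Figure D4:**
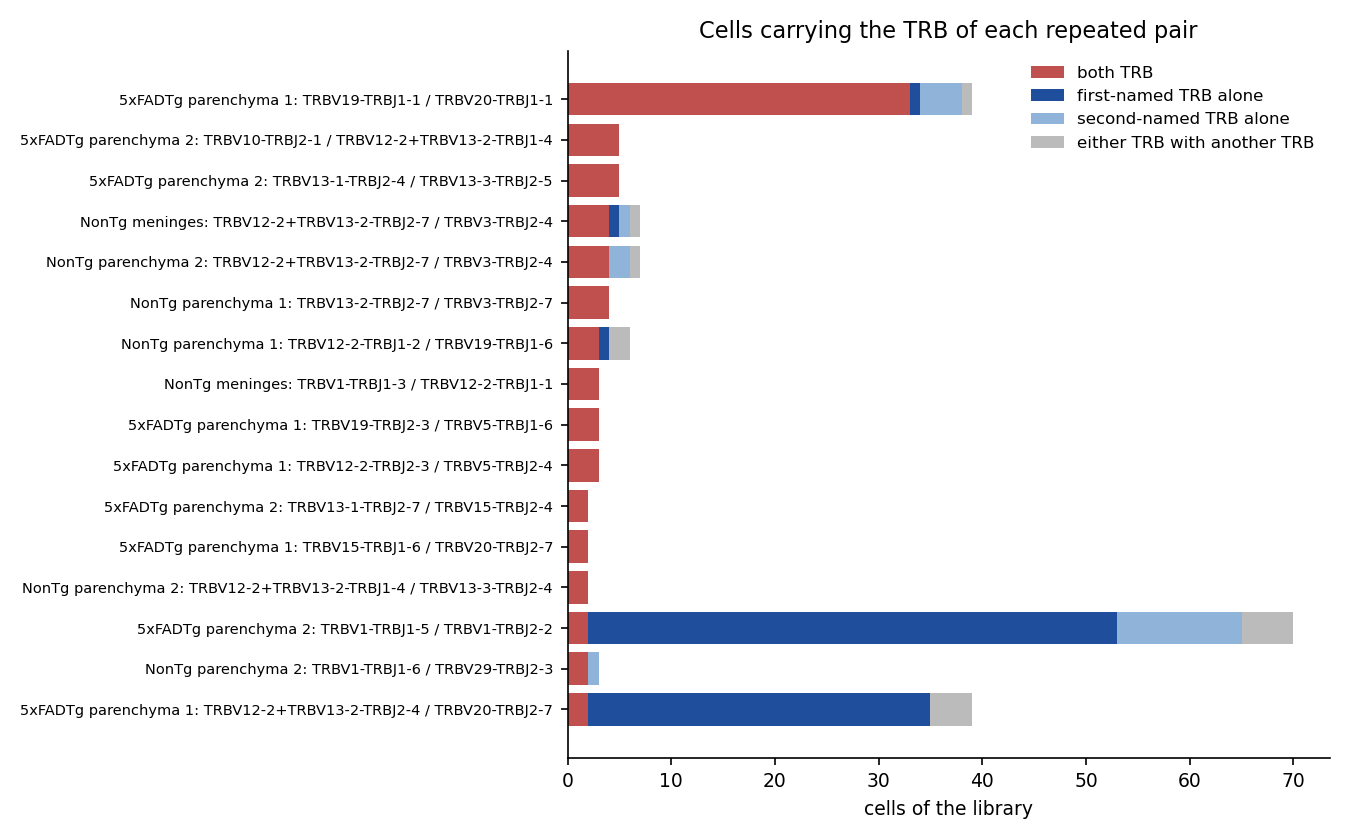
Cells of the library that carried the TRB of each of the 16 recurring pairs: red cells held both, dark blue the first-named TRB alone, light blue the second-named alone, and grey either TRB together with some other TRB. The top bar is the 33-cell pair; in the 70-cell bar only 2 cells held both TRB.

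Recurring pairs were also found across tissues. Of 17 distinct pairs in NonTg meninges 3 were in NonTg parenchyma (17.6%, 95% exact interval 3.80 to 43.4), all in library 2. Of 19 in 5xFADTg meninges 5 were in 5xFADTg parenchyma (26.3%, 9.15 to 51.2), with 3 in library 1 and 2 in library 2. In 7 of these 8 the cells of both tissues shared a TRA as well, and in 0 did they share a cell barcode. The 2 pairs of parenchyma libraries of like genotype shared 0 TRB pairs, and the 9 comparisons of libraries of different genotype shared 0. The labels do not say which tissues came from the same mice.

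The pair of TRBV12-2+TRBV13-2-TRBJ2-7 and TRBV3-TRBJ2-4 shown above was the most abundant across tissues. In NonTg meninges the cells had 2, 5, 92 and 6 UMIs for the first chain and 5, 3, 5 and 3 for the second, and in NonTg parenchyma library 2 they had 6, 1, 8 and 4 and 4, 1, 6 and 9. The TRAV12-2/TRAJ27 chain was in 3 and 4 of these cells. Cells with either chain alone numbered 1 and 1 in the meninges and 0 and 2 in the parenchyma, and 4 of the 7 cells with either chain held both in each tissue. The TRBV1-TRBJ1-3 and TRBV12-2-TRBJ1-1 pair was in 3 cells of NonTg meninges and 1 of NonTg parenchyma library 2, with 2 TRA in common and 0 cells having either TRB alone. In 5xFADTg parenchyma library 1, TRBV19-TRBJ2-3 with TRBV5-TRBJ1-6 and TRBV12-2-TRBJ2-3 with TRBV5-TRBJ2-4 were each in 3 cells, all 3 with a common TRA and 0 with either TRB alone, and each was in 1 cell of 5xFADTg meninges. Over the whole series 18 pairs were in 2 or more cells, 3 of them only because they were in several libraries.

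Among all 431 cells, both TRB were also found in other 1-TRB cells of the library in 105 (24.4%), only the stronger in 61, only the weaker in 88 and neither in 177 (41.1%). The count of 105 leans on the 33-cell pair, whose chains each have a few 1-TRB cells: outside the recurring pairs it was 66 of 352, and without 5xFADTg parenchyma library 1 it was 59. At least 1 TRB belonged to a large clone, taken as 10 or more other 1-TRB cells, in 112 cells, the stronger in 52, the weaker in 76 and both in 16. For comparison, 1778 of 6395 1-TRB cells (27.8%) had their TRB in 10 or more other 1-TRB cells. This value is for 1 TRB per cell, whereas the 112 cells count either of 2 TRB. Taken singly, the stronger TRB (12.1% of the 431 cells) and the weaker TRB (17.6%) both lay below it, without a test. The 27.8% includes the 1-TRB cells of 8 TRB in 60 or more cells, described below. Of the 713 cells with those TRB only 5 were 2-TRB cells, and the 27.8% was not recalculated without them. The comparison therefore does not describe large clones in general. In 50.8% of 1-TRB cells the TRB was in at least 1 other 1-TRB cell. That too is for 1 TRB per cell, so it is no direct background for the 105 and 177 cells.

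By library, both TRB were known from other cells in 30 of 97 and 5 of 52 2-TRB cells of NonTg parenchyma, 46 of 114 and 20 of 127 of 5xFADTg parenchyma, 4 of 22 of NonTg meninges and 0 of 19 of 5xFADTg meninges. The meninges had fewer cells and 1 of the 75 TRB carried by 10 or more cells, and neither TRB was known from other cells in 13 of 22 and 16 of 19 of their 2-TRB cells.

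In 39 of the 431 cells each TRB could be matched to its own TRA: both TRB occurred in 1-TRB cells with a TRA that was different for each, and both of those TRA were in the 2-TRB cell. Of these, 15 were the cells of the 33-cell pair with both TRA. There the 1 cell with TRBV19 alone had the TRAV9D-3 chain, and of the 4 cells with TRBV20 alone 2 had only the TRAV15-2-DV6-2 chain and 1 had both TRA. The other 24 cells were outside the recurring pairs. Among them were 10 in NonTg parenchyma library 1, 1 in NonTg parenchyma library 2, 5 in 5xFADTg parenchyma library 1, 8 in 5xFADTg parenchyma library 2 and 0 in the meninges. In 3 of the 10 in NonTg parenchyma library 1 the stronger chain was the 39-cell TRBV10-TRBJ2-7 clone with TRAV2/TRAJ39, and in 1 more the same TRBV10 chain was the weaker. In many of the 24 a receptor was known from only 1 other cell, and in a few this held for both receptors. The TRB UMI ratio of the 24 was 0.455 at the median, against 0.6 in recurring pairs and 0.545 in the remaining 328 cells.

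For each library, the 2 TRB of 2-TRB cells with most 1-TRB cells are given with the number of different TRB they occurred with, called partners. TRBV10-TRBJ2-7 of NonTg parenchyma library 1 was in 45 1-TRB cells and 10 2-TRB cells with 10 partners, and TRBV12-2+TRBV13-2-TRBJ1-2 there in 39 and 2 with 2 partners. TRBV12-1-TRBJ2-3 of NonTg parenchyma library 2 was in 31 and 7 with 7 partners, and TRBV13-3-TRBJ2-1 there in 12 and 1. In both of these libraries the TRB with more 1-TRB cells also had more 2-TRB cells, which was not so in the 5xFADTg parenchyma libraries. The list holds only TRB found in a 2-TRB cell. It thus leaves out the TRB with 99 and with 72 cells in NonTg parenchyma library 2, which had 0 2-TRB cells. TRBV29-TRBJ1-1 of 5xFADTg parenchyma library 1 was in 40 and 5 with 5 partners, and TRBV12-2+TRBV13-2-TRBJ2-7 there in 41 and 1. TRBV12-1-TRBJ1-1 of 5xFADTg parenchyma library 2 was in 107 and 5 with 5 partners, and TRBV1-TRBJ1-5 there in 51 and 5 with 4 partners. None of these kept to 1 partner beyond 2 cells, unlike the chains of the 33-cell pair. In the meninges the corresponding TRB had at most 5 1-TRB cells and 1 2-TRB cell each.

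Over the 75 TRB carried by 10 or more cells of a library, the TRBV19 and TRBV20 chains of the 33-cell pair had 97.1% and 89.2% of their cells with another TRB. The other 73 had 0 to 27.3% (median 9.09), with 18 at 0 and 143 of 2080 cells in all (6.88%). Size went with this share in a way that did not run evenly. The 8 TRB in 60 or more cells, a limit set after the values were seen, had 5 of 713 cells with another TRB (0.701%, 95% exact interval 0.228 to 1.63), all 5 of them with TRBV12-1-TRBJ1-1. The 24 TRB in 20 to 56 cells had 83 of 814 (10.2%, 8.20 to 12.5) and the 41 in 10 to 19 cells had 55 of 553 (9.95%, 7.58 to 12.7). Cells sharing a TRB are not independent observations, so these intervals cover counting error only.

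The same 8 TRB had 0 of 713 cells with 2 productive TRA, against 105 of 814 (12.9%) and 66 of 553 (11.9%) for the other sizes. The 0 allows a share of up to 0.421% only if the cells were independent. They belong to 8 TRB, so the true limit is wider. Their median TRB UMIs were 8, against 7 and 8, and nonproductive TRB contigs were listed in 51.6% of their cells, against 45.0% and 43.0%. The 51.6% was uneven over the 8 TRB, from 21.1% of cells with TRBV1-TRBJ1-4 to 88.7% with TRBV1-TRBJ2-5, the TRB with most cells. It is thus not a higher share common to these TRB. Second productive chains of both kinds were thus nearly missing from the largest clones of the lists while nonproductive ones were not. The 7 TRB with 0 cells were TRBV1-TRBJ2-5 (115 cells), TRBV5-TRBJ1-1 (82) and TRBV12-2+TRBV13-2-TRBJ1-1 (71) of 5xFADTg parenchyma library 2, TRBV12-2+TRBV13-2-TRBJ2-7 (99) and TRBV19-TRBJ2-1 (72) of NonTg parenchyma library 2, and TRBV17-TRBJ1-1 (86) and TRBV1-TRBJ1-4 (76) of 5xFADTg parenchyma library 1. How the contig lists were filtered before deposit is not stated in the sources used, and its part in this was not tested. Without cells of these 8 TRB the difference in 2 TRA between 2-TRB and 1-TRB cells was 22.5 points, the genotype difference in the share of 2-TRB cells 0.976 points and the tissue difference -2.50 points.

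**Figure D5:**
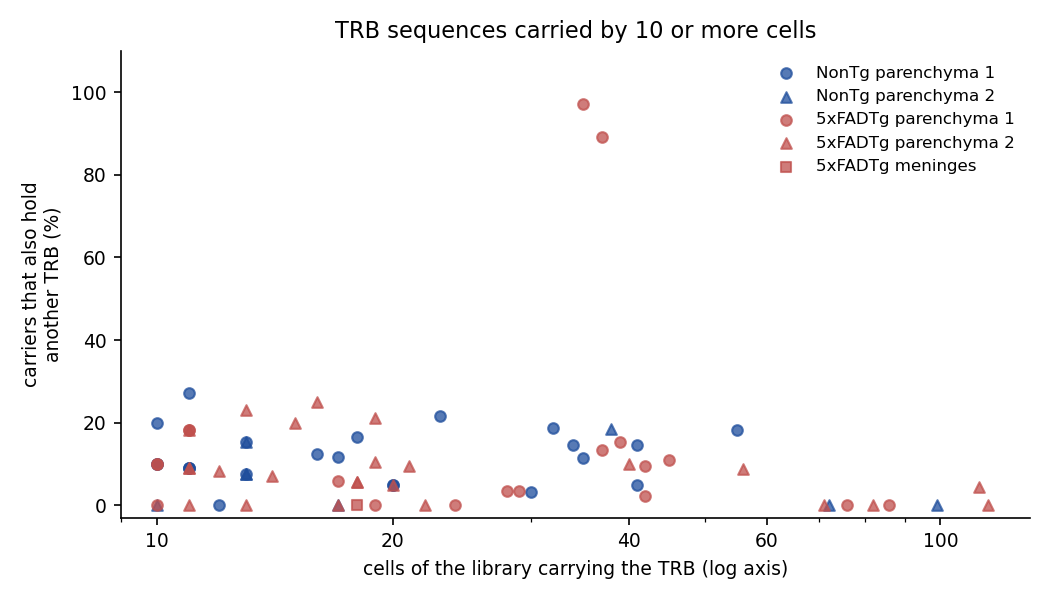
Percent of the cells carrying a TRB that also held another TRB, against the number of carrying cells in the library (log axis), for the 75 TRB in 10 or more cells; colour gives the genotype and shape the library. The top 2 points are the chains of the 33-cell pair (97.1% and 89.2%); the other 73 lie between 0 and 27.3%, and 7 of the 8 TRB in 60 or more cells lie at 0.

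The V and J segments of the 2-TRB cells were compared with those of 1-TRB cells as distinct chain sequences per library and segment. The quasi-likelihood test of edgeR, with library as block, called 0 of 126 segments at an adjusted p of 0.05, and 0% of all segments tested is the background of this comparison. At an unadjusted p of 0.05 there were 7, and DESeq2 called 0 with 3 unadjusted. A sequence seen in both kinds of cell counted in both, so the 2 sides share sequences and 0 calls do not show equal use. The TRBV most used in 2-TRB cells were TRBV12-2+TRBV13-2 (10.3% of TRB sequences against 10.8% in 1-TRB cells) and TRBV3 (9.03 against 7.98). Next came TRBV5 (7.45 against 5.38), TRBV13-3 (7.13 against 7.76) and TRBV1 (6.97 against 4.89), with TRBV5 and TRBV1 among the 7. Among J segments the most used were TRBJ2-7 (17.3 against 19.6), TRBJ2-1 (11.9 against 11.9) and TRBJ2-5 (10.8 against 10.7).

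The smallest p among segments more used in 2-TRB cells was that of TRBJ1-6, with 31 sequences in 2-TRB cells (4.91% against 2.84%, higher in 6 of 6 libraries), a log2 ratio of 0.79 (SE 0.30) and an edgeR adjusted p of 0.547. TRAV9-3 (log2 ratio 1.12, SE 0.45) and TRBV1 (0.51, SE 0.22) followed, with adjusted p of 0.547 and 0.649 in edgeR's test. Among segments less used, TRAJ34 had 5 sequences in 2-TRB cells (1.25% against 3.42%), a log2 ratio of -1.42 (SE 0.54) and an edgeR adjusted p of 0.547. TRAJ35 and TRBV23 had 0 sequences in 2-TRB cells and 21 and 14 in 1-TRB cells, so no ratio is given. None of these passed the threshold.

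The TRB locus holds 2 clusters of D, J and C segments, each followed by its own constant gene, and TRBV31 lies beyond the second in the opposite direction (chr6:41557691-41558452, minus strand). Counted once per library, there were 368 pairs. Of these, 48 joined a J1 with a J1 segment (13.0%) and 166 a J1 with a J2 segment (45.1%). The other 154 joined a J2 with a J2 segment (41.8%). Among distinct TRB of 1-TRB cells, J1 segments made up 34.2%. The 2 TRB of a pair had the same V segment in 26 pairs and the same J segment in 36. TRBV31 was in 27 pairs, all of them seen once in their library, and in 0 of the 16 recurring ones.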

How the data were processed

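The 6 receptor libraries were analysed; the 6 gene expression samples of the series were not analysed here. The labels' protocols name the 10x Chromium Immune Profiling kit (v2). The deposited contig lists give each contig's V, D, J and C genes, CDR3, productive status and raw counts of reads and UMIs without normalization, per the file headers. Cell Ranger 6.0 and mm10 are named in the submitters' processing notes; which filters were used is not given there.

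Productive contigs were grouped by cell barcode and CDR3 nucleotide sequence, and the TRB with more UMIs was called first. No doublet caller was run. The members, lists and tests were chosen with earlier results of these data known. Shares carry 95% exact (Clopper-Pearson) binomial intervals, and beside a count of 0 the limit of 3 counts. Libraries were compared by exact permutation tests and 2-TRB with 1-TRB cells by exact sign-flip tests over libraries, two-sided, with Benjamini-Hochberg adjustment over 2 and 4 tests. Distinct sequences per segment were tested with edgeR 4.0.16 (limma 3.58.1, R 4.3.3), with library as block, the number of sequences as library size, segments of at least 10 sequences and TRAV copies with the letters D or N merged; DESeq2 1.42.0 was an alternative. Simulated counts for this comparison (126 segments) gave back 5 of the 5 segments set to a 4-fold increase, 4 of the 5 set to a 2-fold increase and 0 false calls. The changed segments were drawn only from those with at least 60 sequences in 1-TRB cells, and no sequence was shared between the kinds of cell. Decreases and segments with fewer sequences were therefore not tried. The named items were every segment past the threshold, the 3 smallest p in each direction, the 5 TRBV and 3 TRBJ with most sequences in 2-TRB cells, up to 10 recurring pairs with most cells, and per library the 2 TRB of 2-TRB cells with most 1-TRB cells; other pairs and the TRB in 60 or more cells were named after their values were seen. Germline bases and positions came from GENCODE M21 (GRCm38). Replicate numbers are in the labels for parenchyma only and mark no shared animal or batch. Alternatives were a minimum of 2 UMIs, an edit distance above 2, a UMI ratio of at least 0.25, other denominators, other cell counts and each library left out; leaving out recurring pairs, 1 cell per pair, shared cell labels and TRB in 60 or more cells were chosen after seeing the data. Scripts ran in Python 3.11.15 (scipy 1.17.1, numpy 2.4.6, pandas 2.3.3; figures with matplotlib 3.10.9).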

Additional observations from a re-analysis of the deposited data

Results flagged for a closer look

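The lists hold 26 contigs with the chain label Multi, which join segments of different receptor loci and entered no comparison. This was flagged as signal outside the main measurement; 0 of them were in 2-TRB cells.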

How the results depend on the processing

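Of 116 values under alternatives, over 9 results, 108 kept their direction, side of the threshold or size. The genotype difference in the share of 2-TRB cells (0.570 points) turned to -0.492 without recurring pairs and -0.460 with 1 cell per pair, and ranged from -0.264 to 1.40 with each library left out, below 0 without NonTg parenchyma library 2 and without 5xFADTg parenchyma library 1 (-0.0239). With the replicate number as block it was 0.570 points (exact sign-flip permutation p = 0.5). The check of pairing rests on 2 numbers only and nothing in the labels ties them. The count of cells with both TRB in other cells (105) was 44 with at least 2 other cells required, 66 without recurring pairs, 69 with 1 cell per pair and 59 to 105 with each library left out (59 without 5xFADTg parenchyma library 1, which has the 33-cell pair). The cause was not tested beyond these counts. Segment calls were 0 under every alternative. Recurring pairs numbered 11 to 16. With 2 libraries a group no permutation p can fall under 0.333, and the meninges libraries gave 22 and 19 2-TRB cells, so their shares are known only within the intervals given.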
